A study of Homo sapiens with 8 samples.

Results

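The comparison described here is the effect of a short hairpin construct against SIRT6 (shSIRT6) in MM1.S, set against the same line with a scramble construct (scr). It was chosen by the array titles, and its changes rest on 4 of the 8 arrays of the series, 2 with each construct. The spread behind each SE and p-value was estimated from all 8 arrays, those of NCI-H929 included. MM1.S and NCI-H929, the line of the other 4 arrays, are established human multiple myeloma cell lines, a cancer of plasma cells. Both lines were grown in RPMI-1640 medium with serum and glutamine, and total RNA was read on Affymetrix Human Gene 2.0 ST arrays. The labels name 1 hairpin condition per line and give neither the hairpin's sequence nor the time after its introduction, and nothing says whether the cells were a pool or a clone. Whether the 2 arrays per construct are separate cultures is not stated either. The p-values therefore cover only the variation between arrays within the groups of both lines, which may be technical. Values are log2 levels, 1 row per gene (the row with the highest mean over the 8 arrays), and a change is the mean with shSIRT6 minus the mean with scramble. Genes with a mean level above 3.045 were tested, 12734 in all, and a gene was called where limma, a linear model that shares information on the spread across genes, gave a p below 0.05 after Benjamini-Hochberg adjustment.

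SIRT6 is an NAD-dependent enzyme that removes acetyl groups from histones and thereby quiets genes, among them genes of glycolysis and ribosomal proteins, and it also takes part in DNA repair. Myeloma cells secrete large amounts of antibody and lean on the pathways that supply amino acids, fold proteins in the endoplasmic reticulum (ER) and degrade misfolded ones. When amino acids run short, the kinase GCN2 raises the translation of the transcription factor ATF4, which switches on genes of amino acid synthesis, uptake and tRNA charging. The genes of that amino acid response fell in MM1.S, and the genes and functions beyond it are the subject here.

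The 4 MM1.S arrays gave median levels of 3.88 to 3.97 over all rows, and no pair of the 8 arrays had more than 1.96% of values equal to 2 decimals. The level of SIRT6, read by transcript cluster 16867260, went from 6.09 and 5.88 to 5.60 and 5.78. The groups did not overlap, but the change of -0.295 ± 0.16 (SE, 2 arrays a group) did not pass the test (limma, Benjamini-Hochberg adjusted p = 0.355), so the target gene checks the construct labels only weakly. The plasma cell markers IRF4 (11.61 with scramble, replicate 1), XBP1 (11.01), MZB1 (10.72), SLAMF7 (10.67), CD38 (8.39) and SDC1 (8.18) were high, as the label of the line has it, while POU2AF1, also of that list, was at 5.31. The summed level of the 7 tested plasma cell markers ran from 65.59 to 65.89 with scramble and from 65.78 to 65.81 with shSIRT6.

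In MM1.S 169 of the 12734 genes tested were called, 1.33% of them. Of these 143 fell (1.12%) and 26 rose (0.204%). The falls were also larger: 30 genes fell by at least 1 on the log2 scale and 1 rose by as much, the median fall was -0.79 and the median rise 0.64. All 169 had non-overlapping arrays in MM1.S, which held for 50.7% of all genes tested. Where non-overlap is stated for a called gene below, it therefore adds no support. The median change over all genes was 0.005, and 50.6% of genes had a positive change. In the amino acid response list, 20 of 48 tested members (80 were listed) fell and 0 rose, with a median of -0.47, which leaves 123 falls and all 26 rises outside it. The counts depend on the NCI-H929 arrays and on single arrays. The 4 MM1.S arrays fitted alone, with fewer residual degrees of freedom, gave 0 calls (limma, 2275 genes at an unadjusted p below 0.05). Of the 169 genes, 4 passed the filter only through the construct with which they are high, so that they had to differ. Without scramble replicate 1 or without shSIRT6 replicate 2 of MM1.S no gene was called (limma, 0 in both cases, with 1477 and 1877 genes at an unadjusted p below 0.05), against 2493 (19.6% of genes tested) with all arrays, and without the other arrays of MM1.S 11 and 7 were called.

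The genes that fell in MM1.S had a median change in NCI-H929 close to that of all genes. Of the 143, 88 had a negative change there, and their median was -0.06, against 58.3% of all genes and a median of -0.045. In NCI-H929 0 of the 143 were called lower by limma, which called 3 genes (0.0236%) there in all. The difference between the lines, the change in MM1.S minus the change in NCI-H929, was called for 26 genes, 0.204% of those tested. Of the 169 genes called in MM1.S, 24 were also called in this difference (0.188% of all genes tested). All 24 fell in MM1.S. They comprise 7 genes of the amino acid response list and 17 outside it. Apart from CALCRL, the test shows for these that the changes in the lines differ. It does not show that NCI-H929 had no change or the opposite one. CALCRL, among the 17, passed the filter only through its scramble arrays in MM1.S, so its call is no test. For the other genes called in MM1.S the adjusted p of the difference missed the threshold. This does not show that NCI-H929 responded alike in them. With any one array left out, 0 to 6 genes were called in both, 0 to 2 of them outside the amino acid response list.

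**Figure D1:**
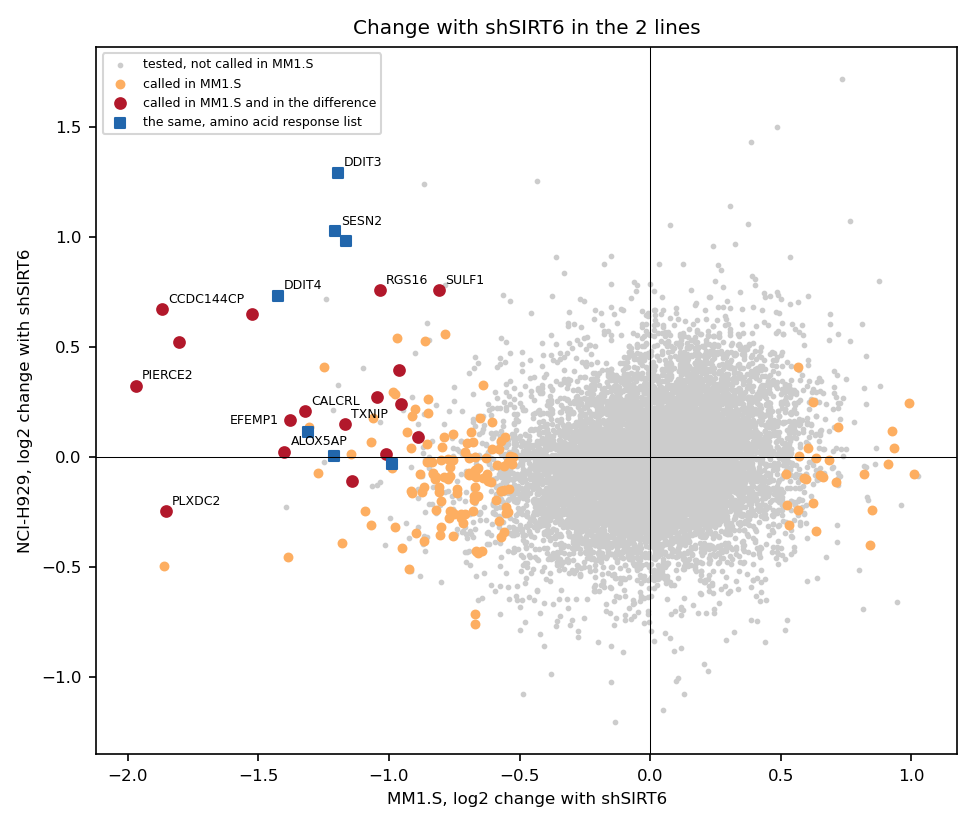
The log2 change with shSIRT6 in MM1.S (horizontal axis) is plotted against that in NCI-H929 (vertical axis) for the 12734 genes tested, 1 point per gene. The 169 genes called in MM1.S are coloured, the 24 that are also called in the difference between the lines lie at the left, and none of them is on the side of the rises.

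Receptors and signalling proteins were among the large falls. CALCRL, the receptor that binds adrenomedullin and calcitonin gene-related peptide together with a RAMP partner (cluster 16906285, chromosome 2), had levels of 4.60 and 4.29 in the scramble arrays and 3.11 and 3.14 in the shSIRT6 arrays. The latter lay just above the filter level of 3.045, which the gene passed only through its scramble arrays in MM1.S, so these levels are a description and no test of them is given. In NCI-H929 CALCRL was already at 2.73 and 2.77 with scramble. Its partners RAMP1, RAMP2 and RAMP3 were not called, with changes of 0.24, 0.09 and 0.345, and no other of the 8 tested members of the calcitonin receptor list was called (median 0.09).

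PLXDC2, a transmembrane protein with a plexin-type domain that binds the secreted factor PEDF (cluster 16703036, chromosome 10), was at 7.34 and 7.29 with scramble and at 5.56 and 5.36 with shSIRT6. The groups were far apart, and the change was -1.86 ± 0.12 (3.62-fold lower, adjusted p = 0.00377), against -0.245 in NCI-H929. RGS16, which speeds the switching off of G protein signals, had changes of opposite sign in the lines. It stood at 6.97 and 6.74 against 5.75 and 5.89 in MM1.S (-1.03 ± 0.12, adjusted p = 0.0165). In NCI-H929 it stood at 7.79 and 7.83 against 8.65 and 8.49, a rise that was not called (limma, adjusted p = 0.177). The difference between the lines was -1.80 ± 0.17 (adjusted p = 0.0170). MERTK, a receptor tyrosine kinase that binds GAS6 and takes part in the clearance of dying cells, was at 7.96 and 7.73 with scramble and at 6.69 and 6.64 with shSIRT6. Its fall of -1.18 ± 0.11 passed (adjusted p = 0.00954), but with a change of -0.39 in NCI-H929 the difference between the lines did not (adjusted p = 0.127). GPR155, a lysosomal membrane protein that senses cholesterol, had 2 equal scramble arrays at 6.02 and shSIRT6 arrays at 5.08 and 4.42, the widest spread among these genes (-1.27 ± 0.21, adjusted p = 0.0418). Other genes that fell, named after their values were seen, were F2R, a receptor cleaved by thrombin (-0.91 ± 0.11), PDGFRL, a receptor-like protein (-1.07 ± 0.14), and the adhesion molecules ALCAM (-0.80 ± 0.12) and CNTN1 (-0.90 ± 0.13).

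Genes of secreted lipid mediators and of the extracellular matrix followed. ALOX5AP, which presents arachidonic acid to 5-lipoxygenase in leukotriene synthesis (cluster 16773662, chromosome 13), was at 7.99 and 8.04 with scramble and at 6.64 and 6.59 with shSIRT6, and within each pair the arrays differed by far less than the groups did. It fell by 1.40 ± 0.093 (2.64-fold, adjusted p = 0.00377), while its 4 NCI-H929 arrays lay between 6.30 and 6.40. The difference between the lines was -1.42 ± 0.13 (adjusted p = 0.0170). No other tested member of the leukotriene and prostaglandin list, 17 genes in all, was called (median 0.10). The partner enzyme ALOX5 had 5.37 and 5.53 against 5.07 and 5.19 (adjusted p = 0.159) and LTA4H, which makes leukotriene B4, 8.43 and 8.41 against 7.97 and 8.07 (adjusted p = 0.121).

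EFEMP1 (fibulin-3), a matrix glycoprotein, was at 7.07 and 7.02 with scramble and at 5.72 and 5.61 with shSIRT6 (-1.38 ± 0.14, adjusted p = 0.0107), and FN1 (fibronectin) at 6.61 and 6.79 against 5.78 and 5.96 (-0.83 ± 0.13, adjusted p = 0.0368). As for every called gene, the groups did not overlap for either. These were the 2 members called among 24 tested of the matrix list, whose median of 0.003 turned negative under each of 3 other scalings of the arrays (-0.080 to -0.039). SULF1, an enzyme that trims sulfate groups from heparan sulfate outside the cell, was at 8.39 and 8.23 against 7.62 and 7.38 in MM1.S (-0.81 ± 0.12, adjusted p = 0.0301). In NCI-H929 it was near the dim end, at 2.94 and 2.89 with scramble. With shSIRT6 it was at 3.68 and 3.67 there, a change that was not called (limma, adjusted p = 0.158). The difference of -1.57 ± 0.16 (adjusted p = 0.0243) thus sets a bright gene against a dim one.

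TXNIP, which binds thioredoxin and restrains glucose uptake (cluster 16669796, chromosome 1), was bright. Its levels were 10.19 and 10.16 in the scramble arrays and 9.03 and 8.98 with the hairpin, a fall of 1.17 ± 0.10 (2.25-fold, adjusted p = 0.00806). With shSIRT6, MM1.S thus stood where NCI-H929 stood with scramble (9.11 and 8.97), and the difference between the lines was -1.32 ± 0.15 (adjusted p = 0.0323). Its relative ARRDC4, another gene that follows glucose supply, was not called (-0.32, adjusted p = 0.430).

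The genes called in the difference between the lines also held 3 that encode RNA-processing proteins, put side by side after their values were seen and not tested as a group. ESRP1, a splicing regulator best known from epithelial cells, was at 6.17 and 6.01 with scramble and at 5.04 and 5.22 with shSIRT6 (-0.96 ± 0.12, adjusted p = 0.0188). MBNL2, a muscleblind splicing regulator, was at 9.52 and 9.46 against 8.61 and 8.59 (-0.89 ± 0.089, adjusted p = 0.0105), and was far dimmer in NCI-H929, between 4.55 and 4.65. TSEN15, a subunit of the endonuclease that removes introns from tRNA precursors, was at 9.48 and 9.35 against 8.45 and 8.36 (-1.01 ± 0.097, adjusted p = 0.00954). As for every gene called lower, the shSIRT6 arrays lay below the scramble arrays without overlap in all of these. The broader splicing lists held no call: 0 of 51 spliceosome core genes (limma; 9 at an unadjusted p below 0.05, median -0.015) and 0 of 47 SR proteins and hnRNPs (9 at an unadjusted p below 0.05, median -0.015). Under 2 of 3 other scalings of the arrays both medians were positive. ESRP1 also stands on a list of epithelial and kidney line markers, of which 10 were tested and 9 had positive changes, ESRP1 being the only negative one. The summed level of that list went from 46.30 and 46.31 to 47.21 and 47.83, and EPCAM lay between 3.15 and 3.75 in all 4 arrays.

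PIERCE2, a protein inside the microtubule wall of cilia (cluster 16801299, chromosome 15), had the largest fall of all. It was at 7.77 and 7.54 with scramble and at 5.59 and 5.78 with shSIRT6 (-1.97 ± 0.19, 3.92-fold lower, adjusted p = 0.00992). The difference between the lines was -2.30 ± 0.27 (adjusted p = 0.0398), but PIERCE2 was far dimmer in NCI-H929, at 4.45 and 4.97 with scramble. It was joined by ARL6, a GTPase that brings the BBSome coat to cilia (5.74 and 5.62 against 4.58 and 4.83; -0.975 ± 0.17), and IFT172, a subunit of the train that carries cargo along cilia (5.30 and 5.27 against 4.74 and 4.74; -0.545 ± 0.095). The adjusted p was 0.0452 and 0.0461. In the same list CIMAP1D rose, so that 3 of 56 tested cilium genes fell and 1 rose, with a median of -0.09. Genes outside that list that fell, picked from the called genes with no count of centrosome genes behind them, encode the centrosome proteins CEP128 (-0.75 ± 0.12), CEP41 (-0.70 ± 0.11), CEP120 (-0.67 ± 0.091) and CEP57 (-0.55 ± 0.093).

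Several of the largest falls are RNAs with little known function or are read by probes that other transcripts share. CCDC144CP, a pseudogene on chromosome 17 with near-identical copies, was at 8.81 and 8.90 with scramble and at 6.96 and 7.01 with shSIRT6 (-1.87 ± 0.17, adjusted p = 0.00954), and its probes may read those copies. LINC-PINT, a long noncoding RNA known as a p53 target, was at 9.34 and 9.20 against 8.19 and 8.06 (-1.15 ± 0.13, adjusted p = 0.0152). The long noncoding RNA LINC00623 was at 6.65 and 6.82 against 5.74 and 5.82 (-0.955 ± 0.11). Large falls were also seen in RNF148, a ubiquitin ligase (-1.39 ± 0.10), TMEM267 (-1.30 ± 0.16), CLIC2, of the intracellular chloride channel family (-1.09 ± 0.13), NETO2, an accessory subunit of kainate receptors (-1.07 ± 0.15), and TATDN3 (-1.04 ± 0.12), with adjusted p-values from 0.00417 to 0.0262. CCDC144CP, TATDN3 and LINC00623 were also called in the difference between the lines (adjusted p = 0.0172, 0.0435 and 0.0417). The largest falls comprise 16 genes by the rule used, and 1 of them is not described here.

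**Figure D2:**
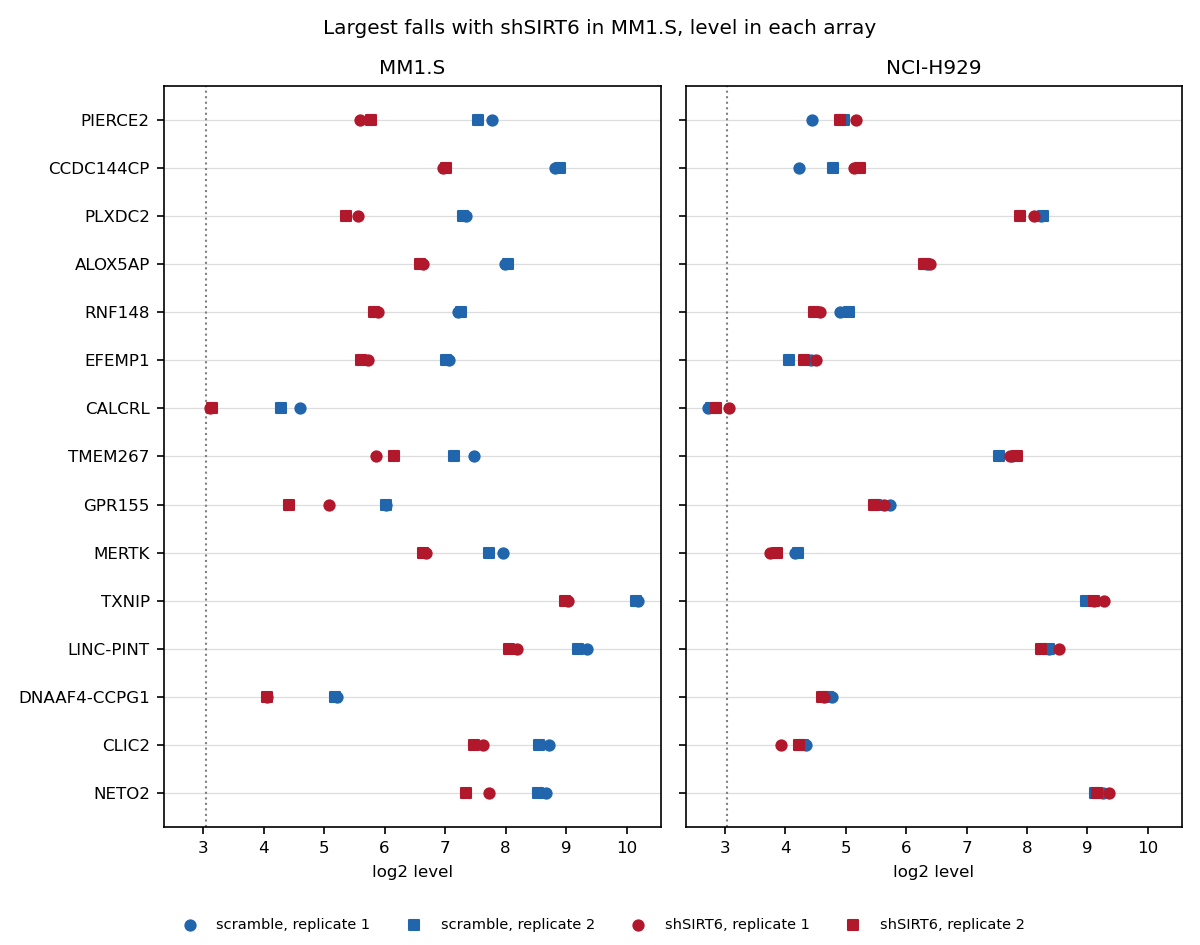
Log2 levels in each array (horizontal axis) are shown for 15 of the genes with the largest falls in MM1.S outside the amino acid response list, for MM1.S on the left and NCI-H929 on the right. The blue scramble and red shSIRT6 points are apart for every gene in MM1.S, as the rule that picked the genes required. In NCI-H929 the constructs lie nearer each other than in MM1.S, but for several genes, such as CCDC144CP and RNF148, they do not overlap there either. The dotted line marks the filter level of 3.045.

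Some falls were in genes that overlap or lie near each other on a chromosome. Overlapping genes may share transcripts or probes, and whether near neighbours fell together more often than other genes was not tested. By gene order in RefSeq, PIERCE2, the read-through gene DNAAF4-CCPG1 and the microRNA gene MIR628 lie at 1 locus on chromosome 15. DNAAF4-CCPG1 overlaps both of the others. It was at 5.21 and 5.18 with scramble and at 4.06 and 4.05 with shSIRT6 (-1.14 ± 0.089, adjusted p = 0.00466), and MIR628 at 6.45 and 6.04 against 4.28 and 4.60 (-1.80 ± 0.21, adjusted p = 0.0165). All 3 were called in the difference between the lines. LINC-PINT lies near MIR29A on chromosome 7, RNF148 near RNF133 (-0.80), TXNIP near POLR3GL (-0.665), EPM2AIP1 (-0.74) near TRANK1 (-0.68), N4BP2L2 (-0.625) overlaps N4BP2L2-IT2 (-0.865), and MIR616 (-0.785) overlaps DDIT3, the stress transcription factor CHOP (-1.20). In each of these pairs both genes were called lower.

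In all 7 of 622 tested microRNA and other small RNA genes were called, 5 lower and 2 higher, or 1.13% against 1.33% of all genes. MIR29A and MIR643, among the 5 lower, passed the filter only through their scramble arrays in MM1.S and had to differ. The share is therefore a description and no test. The array reads the locus of such a gene, and with it any host transcript, so these values say nothing on the mature microRNA. The mature products of the 3 loci that fell together with a neighbour are shown because they name what those loci encode. A microRNA finds its targets mainly by its seed, bases 2 to 8 from the 5′ end, which is in capitals below. No seed was shared among them. The sequences are those of RefSeq (GRCh38.p14), and each lies on the minus strand.
hsa-miR-29a-3p: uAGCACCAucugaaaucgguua
hsa-miR-29a-5p: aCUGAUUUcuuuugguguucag
hsa-miR-628-5p: aUGCUGACauauuuacuagagg
hsa-miR-628-3p: uCUAGUAAgaguggcagucga
hsa-miR-616-5p: aCUCAAAAcccuucagugacuu
hsa-miR-616-3p: aGUCAUUGgaggguuugagcag
The 3p product of MIR29A lies at chr7:130876748-130876769, the 5p product of MIR628 at chr15:55372991-55373012 and the 5p product of MIR616 at chr12:57519223-57519244. MIR29A, whose product is known to restrain collagen and other matrix genes, was at 4.95 and 4.19 with scramble and at 2.86 and 2.56 with shSIRT6. It passed the filter only through the scramble arrays of MM1.S, since its mean over the other 3 groups was 2.56, so these levels are a description and no test of them is given. It overlaps no other gene in the RefSeq table. The other called microRNA genes lie within genes that were themselves not called: MIR643 (-0.54, also past the filter only through its scramble arrays) in ZNF766 (-0.05), MIR4320 (-0.85) in MYO5B (0.125), MIR3164 (0.565) in TPCN2 (-0.065) and MIR4451 (0.99) in ARHGAP24 (-0.025).

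The 26 rises were smaller and began lower. The median level with scramble was 5.24 for the genes that rose, 7.28 for those that fell and 5.51 for all genes tested. Of the 26, 16 began below 6. Since the scramble level enters the change by which genes were called, these levels are a description. MIDN (midnolin), which carries nuclear proteins to the proteasome, rose most, from 5.25 and 5.59 to 6.41 and 6.45 (1.01 ± 0.13, adjusted p = 0.0194). Both shSIRT6 arrays were well above the scramble arrays. TP73, a relative of p53, was at 4.55 and 4.29 with scramble and at 5.31 and 5.23 with shSIRT6 (0.85 ± 0.12, adjusted p = 0.0263). KLHL29, a kelch-like protein, went from 3.60 and 3.66 to 4.68 and 4.45 (0.935 ± 0.11, adjusted p = 0.0169), so that it started within 1 log2 unit of the filter level.

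Genes best known from neurons were found on both sides. Of 30 tested synapse genes, SYN1, a coat protein of synaptic vesicles, rose from 3.97 and 3.85 to 4.74 and 4.93 (0.925 ± 0.11), and the dopamine receptor gene DRD3 from 3.62 and 3.76 to 4.66 and 4.36 (0.82 ± 0.14). HOMER1, a scaffold protein, fell from 8.05 and 7.84 to 7.17 and 7.10 (-0.81 ± 0.11), and it was the only bright gene of the 3. Adjusted p-values over these 3 genes ran from 0.0169 to 0.0468 (limma), and the median of the list was 0.125. NECTIN1, a cell adhesion protein, rose from 4.73 and 4.81 to 5.44 and 5.52 (0.71 ± 0.092, adjusted p = 0.0223).

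Single genes of lipid synthesis, the lysosome and the plasma cell surface were among the rises. FASN, the fatty acid synthase, went from 8.14 and 8.13 to 8.75 and 8.70 (0.59 ± 0.099, adjusted p = 0.0452). The lysosomal protease CTSD went from 9.10 and 9.19 to 9.66 and 9.82 (0.595 ± 0.10, adjusted p = 0.0452), and LAPTM4B, a dimmer lysosomal membrane protein, from 4.83 and 4.83 to 5.55 and 5.48 (0.685 ± 0.090, adjusted p = 0.0234). As for every called gene, the arrays of the constructs did not overlap in any of these. LAPTM4B stood near 10 in all NCI-H929 arrays, from 9.99 to 10.05. SDC1 (CD138), the surface proteoglycan by which plasma cells are recognised, went from 8.18 and 8.23 to 8.73 and 8.72 (0.52 ± 0.091, adjusted p = 0.0461), and FCMR, the receptor for IgM, from 9.04 and 9.14 to 9.76 and 9.72 (0.65 ± 0.11, adjusted p = 0.0452). LRWD1, a partner of the origin recognition complex, rose by 0.66 ± 0.11. SDC1 was the 1 of 17 tested plasma cell identity genes to be called (median -0.06), and 11 of the 17 had negative changes. None of the 26 rises was called in the difference between the lines (limma), and 8 of the 26 had a positive change in NCI-H929, with a median of -0.075.

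**Figure D3:**
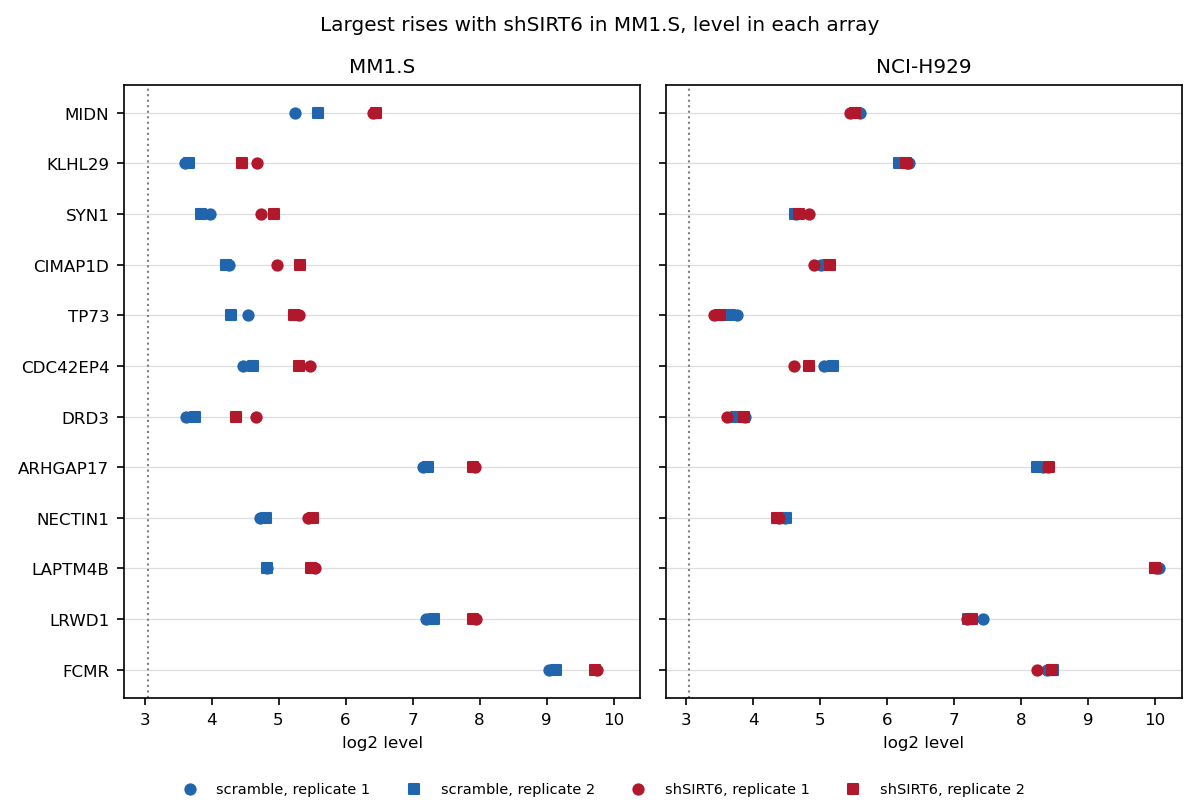
Log2 levels in each array (horizontal axis) are shown for the 12 genes with the largest rises in MM1.S, for MM1.S on the left and NCI-H929 on the right. In MM1.S the red shSIRT6 points lie to the right of the blue scramble points for every gene, as the rule that picked the genes required. Most of the genes lie below a level of 6.

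Pathways next to the amino acid response were read through lists, described by the members called beside the background of 1.12% falls and 0.204% rises, and by the median beside 0.005 for all genes; an unadjusted p below 0.05 was held by 19.6% of all genes. Of 25 tested genes of mTORC1 signalling, the pathway that senses amino acids for growth, 3 fell and 0 rose (median -0.08). These were its inhibitors DDIT4 (6.90 and 6.86 to 5.52 and 5.39) and SESN2 (8.23 and 8.25 to 7.02 and 7.05), and EIF4EBP1 (8.25 and 8.40 to 7.67 and 7.62; -0.68 ± 0.10, adjusted p = 0.0368), a brake on translation that mTORC1 releases. All 3 also stand on the amino acid response list. DDIT4 and TXNIP were the 2 of 21 tested glucocorticoid response genes to fall (median -0.015, which another scaling moved to 0.0003). Of 20 tested genes of the p53 family and its targets SESN2 fell and TP73 rose, and 15 had negative changes (median -0.24). Of 26 tested genes of the unfolded protein response and ER degradation 2 fell, the degradation adaptor SEL1L (11.57 and 11.54 to 11.00 and 11.04; -0.535 ± 0.093) and the oxidase ERO1B (5.64 and 5.52 to 4.97 and 4.76; -0.715 ± 0.12), with adjusted p-values of 0.0455 and 0.0470 and a median of -0.15. CLGN, an ER chaperone outside the list, fell too (-0.80 ± 0.11, named after its value was seen).

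In autophagy 1 of 29 tested genes fell, TAX1BP1, a receptor that hands cargo to autophagosomes (9.24 and 9.17 to 8.62 and 8.65; -0.57 ± 0.096, adjusted p = 0.0452), while 24 had negative changes (median -0.14). In the lysosome 2 of 28 rose, CTSD and LAPTM4B, and 0 fell (median 0.05, which turned negative when array medians were equalized). In fatty acid synthesis FASN was the 1 of 17 to be called (median 0.145), and SCD, which desaturates its products, was at 11.32 and 11.33 against 11.60 and 11.59 (adjusted p = 0.180). No gene of cholesterol synthesis was called (limma; 0 of 20, 8 at an unadjusted p below 0.05, median 0.19), and none of the NRF2 and oxidative stress list (0 of 16, 4 at an unadjusted p below 0.05, 14 positive, median 0.19), where GPX4, which removes lipid peroxides, had a change of 0.42 ± 0.092 (adjusted p = 0.0776).

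Immune signalling held few calls. Of 27 tested interferon-stimulated genes, IFIT5 (7.45 and 7.42 to 6.72 and 6.67; -0.74 ± 0.11, adjusted p = 0.0331) and SAMD9L (9.77 and 9.70 to 9.13 and 9.13; -0.605 ± 0.10, adjusted p = 0.0455), both antiviral effectors, fell. The list's median of -0.025 was 0.0006 under another scaling. STAT4, a transcription factor downstream of interleukin-12, was the 1 of 35 cytokine receptor and JAK-STAT genes called (7.40 and 7.28 to 6.68 and 6.49; -0.755 ± 0.12, adjusted p = 0.0368). No gene of the NF-kB list (0 of 22, 6 at an unadjusted p below 0.05) or of the ERK feedback list (0 of 15, 6 at an unadjusted p below 0.05) was called by limma.

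In the nucleus PARP2, which senses DNA breaks in base excision repair, was the 1 of 21 genes of that list to be called (6.98 and 6.84 to 6.14 and 6.23; -0.725 ± 0.10, adjusted p = 0.0263). In double-strand break repair 21 of 24 genes had negative changes but 0 were called (limma; 6 at an unadjusted p below 0.05, median -0.13); RAD51C had -0.40 ± 0.093 (adjusted p = 0.0872). Lists of ribosomal proteins (0 of 45; 3 at an unadjusted p below 0.05), DNA replication (0 of 24; 3), mitosis (0 of 40; 8), chromatin enzymes (0 of 50; 9) and glycolysis and hypoxia (0 of 20; 3) held no call by limma. Of the 8 tested genes known as SIRT6 targets 0 were called and 1 had an unadjusted p below 0.05. In the BCL2 family of cell death regulators 0 of 19 were called (6 at an unadjusted p below 0.05), and PMAIP1 (NOXA), which promotes cell death, had -0.855 ± 0.16 (adjusted p = 0.0550).

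**Figure D4:**
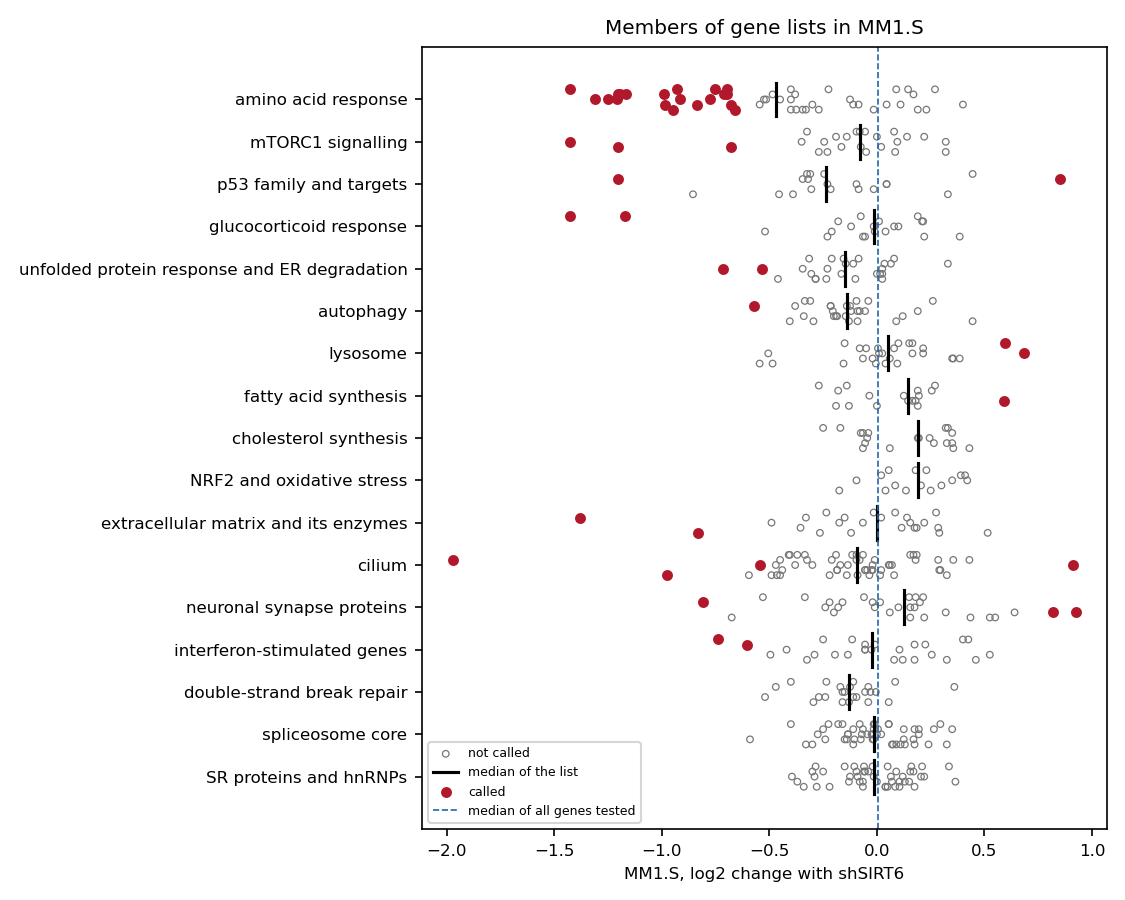
The log2 change with shSIRT6 in MM1.S (horizontal axis) is shown for each tested member of 17 gene lists, with called members in red, other members as open grey circles, a black bar at the median of each list and a dashed line at the median of all genes tested, 0.005. The amino acid response list holds 20 called members at the left, and no other list shown holds more than 4 called members.

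The genes that fell outside the amino acid response list had a median level of 7.17 with scramble against 5.51 for all genes. The scramble level enters the change, so this is a description. Gene length did not enter the test. These genes had a median span of 62.9 kb in RefSeq against 22.2 kb for all genes tested and 26.5 kb for the genes that rose. Of the 143 falls, 82 were in genes brighter in MM1.S than in NCI-H929 with scramble, as 47.1% of all genes were, and 7 of the 26 rises were. These counts too use the scramble level that enters the change. Of the 123 falls outside the list 9 were in genes that NCI-H929 held below the filter level with scramble, as were 3 of the 17 called in the difference, CALCRL and SULF1 among them. Others of the 17 lay above the filter level in NCI-H929 with scramble but far below their MM1.S level. Among these were CCDC144CP (4.23 and 4.79), EFEMP1 (4.42 and 4.06) and ESRP1 (3.37 and 3.43). PLXDC2 and RGS16 were brighter in NCI-H929 than in MM1.S. The part of probe brightness in these contrasts was not tested. At the threshold, GRAMD2B (adjusted p = 0.0499) and NKD1 (0.0496) lay just inside and SAMD12 and TIGD1 (both 0.0510) just outside.

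Promoters were searched on both strands over the 250 bases before the start in RefSeq (GRCh38.p14) for TGATGNAA, the composite site of C/EBP and ATF factors through which ATF4 acts, where N is any base. It was found in 3 of 17 genes that fell in the amino acid response list (17.6%). Outside that list it was found in 2 of 92 that fell (2.17%) and in 0 of 15 that rose. Of the promoters of all genes tested 152 of 9530 held it (1.59%). CALCRL, 1 of the 2 outside the list, passed the filter only through its scramble arrays in MM1.S, so its call is no test. The cAMP response element TGACGTCA was found in 3 of 92 falls outside the list (3.26%, FN1, PARP2 and SKIL), in SYN1 among the 15 rises and in 2.52% of all promoters. The E-box CACGTG was found in 4 of 92 (4.35%) against 8.38% of all. A match is a description of letters, not a site in use. The promoters of ASNS, the asparagine synthetase of the amino acid response (8.99 and 8.92 to 7.62 and 7.67 in MM1.S), and of CALCRL and FCRLA, the 2 genes outside that list with the composite letters, are shown for comparison, 5′ to 3′ on the gene's own strand with those letters in capitals.
ASNS: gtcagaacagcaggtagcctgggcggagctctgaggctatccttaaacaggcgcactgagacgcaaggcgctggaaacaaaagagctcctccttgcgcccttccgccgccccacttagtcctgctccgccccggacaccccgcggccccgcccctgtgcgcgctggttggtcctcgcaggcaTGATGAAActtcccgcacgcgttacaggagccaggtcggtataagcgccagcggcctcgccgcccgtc
CALCRL: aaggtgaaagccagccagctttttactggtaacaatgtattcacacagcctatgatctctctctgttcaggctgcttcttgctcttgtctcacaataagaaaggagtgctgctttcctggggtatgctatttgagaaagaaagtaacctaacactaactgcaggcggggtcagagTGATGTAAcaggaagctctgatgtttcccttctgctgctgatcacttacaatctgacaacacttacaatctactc
FCRLA: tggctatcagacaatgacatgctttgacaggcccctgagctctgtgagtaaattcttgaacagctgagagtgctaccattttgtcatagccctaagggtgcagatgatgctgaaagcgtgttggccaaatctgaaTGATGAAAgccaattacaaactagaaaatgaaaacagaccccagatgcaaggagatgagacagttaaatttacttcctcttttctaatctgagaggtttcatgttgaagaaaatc
These stretches are chr7:97872409-97872658 on the minus strand, chr2:187448253-187448502 on the minus strand and chr1:161706979-161707228 on the plus strand. The composite letters begin 68 bases before the start in ASNS, 75 in CALCRL and 115 in FCRLA. FCRLA, an Fc receptor-like protein of B lineage cells, was at 7.44 and 7.43 with scramble and at 6.89 and 6.61 with shSIRT6 in MM1.S (-0.685 ± 0.12, adjusted p = 0.0479).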

How the data were processed

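The authors made log2 values with RMA in the Transcriptome Analysis Console on build hg19, tools and build being those that the submitters' processing notes name. The table has 1 row per transcript cluster, 48226 in all. The platform annotation gave 16098 of them 1 gene symbol and 32128 none, covering 14884 genes. For 779 genes with several rows the row with the highest mean was kept. Tested genes had a mean over 3.045, the 30th percentile of the clusters. Group means were fitted for the 4 groups in limma 3.58.1 (R 4.3.3) over all 8 arrays, with 4 residual and 3.43 prior degrees of freedom. The contrasts were shSIRT6 minus scramble in each line and MM1.S minus NCI-H929, and p-values were adjusted over the 12734 genes (Benjamini-Hochberg). With 2 arrays against 2 the smallest two-sided p of an exact permutation test is 0.333, so only limma tests single genes. The fitting code was tested on simulated data. Array number limits the precision, and scanner intensities were not used here.

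The comparison, the members and the 50 gene lists were chosen with earlier results of these data known. Named genes are SIRT6, genes picked by the size or p of their change, and list members. Among called genes with non-overlapping arrays, without the amino acid response list and small RNA genes, the 16 largest falls and 12 largest rises were picked. From the same genes came the 10 with the lowest p in the difference, among those also called in it. Of each list up to 5 called members were named, or its 2 with the lowest p where none was called. Results for 1 gene that the rule names, and for 1 of the lists, are not reported here. Array groups came from the cell line and condition labels. Same-numbered arrays deviated together hardly at all (correlation 0.0767 in MM1.S, -0.00108 in NCI-H929), so the numbers were not taken as pairs. Alternatives covered the filter, the choice of row, the scaling of arrays, the variance model, MM1.S arrays alone, the replicate block and leaving out each array. Sequences and gene order came from RefSeq, GRCh38.p14, and no hg19 coordinates are given.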

Additional observations from a re-analysis of the deposited data

Results flagged for a closer look

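Of the 26 genes whose change with shSIRT6 differed between the lines by the test of the difference itself (limma, Benjamini-Hochberg adjusted p below 0.05 over all genes tested), 24 were also called in MM1.S, and each of these fell there. All but 1 of them are given here. The values here are log2 changes in MM1.S minus those in NCI-H929, from 2 arrays a group. In the amino acid response list they were -2.49 for DDIT3, -2.24 for SESN2, -2.15 for the stress regulator TRIB3, -2.16 for DDIT4, -1.42 for ASNS, -1.22 for SARS1, the seryl-tRNA synthetase, and -0.96 for PSAT1, an enzyme of serine synthesis. At the locus on chromosome 15 they were -2.30 for PIERCE2, -2.33 for MIR628 and -1.03 for DNAAF4-CCPG1. Signalling and surface genes had -1.80 (RGS16), -1.61 (PLXDC2) and -1.53 (CALCRL, which passed the filter on dim genes only through its scramble arrays in MM1.S). For lipid mediators, matrix and redox control they were -1.42 (ALOX5AP), -1.57 (SULF1), -1.55 (EFEMP1) and -1.32 (TXNIP). RNA-processing genes had -1.36 (ESRP1), -0.98 (MBNL2) and -1.02 (TSEN15). The remaining values were -2.54 for CCDC144CP, -1.32 for TATDN3 and -1.20 for LINC00623.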

How the results depend on the processing

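Against 169 called genes in MM1.S (143 lower, 26 higher, 123 lower outside the amino acid response list, 24 also called in the difference, 17 of them outside the list), leaving out each array in turn gave 0 to 84 calls, 0 to 76 lower, 0 to 8 higher, 0 to 62 lower outside the list, 0 to 6 in both and 0 to 2 outside the list. The MM1.S arrays alone and the fit with a replicate block within line each gave 0 calls, 0 lower, 0 higher and 0 lower outside the list. They had 2275 and 2444 genes at an unadjusted p below 0.05 (limma). The block also gave 0 in both and 0 outside the list. Replicate numbers were not taken as pairs in the main fit, but the array titles do not say whether they are pairs. Fewer arrays or fewer residual degrees of freedom enter those fits. No filter gave 113 calls, 101 lower, 12 higher, 82 lower outside the list, and 17 in both, 11 of them outside the list. A filter at the 50th percentile gave 314 calls, 256 lower, 58 higher and 232 lower outside the list. Equalized array medians gave 17 higher and 186 lower outside the list. A variance prior that follows the level (trend) gave 953 calls, 710 lower, 243 higher, 680 lower outside the list, 297 in both and 273 outside the list. The cause was not tested for these. The other fits (mean of clusters, robust prior, quantile and cyclic loess scaling) gave 123 to 169 calls. They gave 82 to 125 lower outside the list, with 82 under quantile scaling. Every one of the 169 genes kept its sign under each alternative that fitted it, 158 of them under the stricter filter. Their arrays did not overlap in MM1.S, so leaving out an array could not turn a sign. Changing the filter or the variance model leaves the change itself as it was. The kept signs were therefore largely fixed in advance and are no support. With 1 array left in a group, that array is assumed to vary like the other groups.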

Other observations

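Regulators of Ras, a switch of growth signals that is often mutated in myeloma, were called in both directions, and these and the further genes here were chosen after their values were seen. RASA2, which turns Ras off, fell from 9.09 and 8.87 with scramble to 8.03 and 8.10 with shSIRT6 (-0.915 ± 0.11, SE, limma adjusted p = 0.0165). Its relative RASA4 rose from 8.01 and 7.96 to 8.53 and 8.49 (0.525 ± 0.090, adjusted p = 0.0452), and RGL1, an activator of the Ras-related protein Ral, fell by 0.57 ± 0.10 (adjusted p = 0.0483). As for every called gene, the arrays of the constructs did not overlap for any of these. ORAI1, the pore of store-operated calcium entry, rose from 5.36 and 5.17 to 5.83 and 5.95 (0.625 ± 0.11, adjusted p = 0.0452). Among adaptors of lymphocyte receptors, STAP1 fell from 8.08 and 7.87 to 7.17 and 7.20 (-0.79 ± 0.13) and PAG1 from 6.25 and 6.33 to 5.66 and 5.57 (-0.675 ± 0.11). STAP1 lay between 2.30 and 2.62 in NCI-H929, under the filter level.

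Transcriptional regulators that fell include ZEB1, a repressor known from epithelial-mesenchymal transition, from 7.16 and 7.07 to 6.35 and 6.35 (-0.765 ± 0.097, adjusted p = 0.0202), and SKIL, a repressor of SMAD signalling, from 7.55 and 7.51 to 6.66 and 6.67 (-0.865 ± 0.094, adjusted p = 0.0147). Among proteins of the secretory route, SRP54, which guides new secretory proteins to the ER, fell by 0.58 ± 0.097 and GFPT1, which makes the sugar donor for glycosylation, from 10.49 and 10.47 to 9.97 and 9.85 (-0.57 ± 0.093, adjusted p = 0.0439). LYST, a regulator of lysosome size, fell by 0.81 ± 0.13. In NCI-H929 the changes of SRP54 and GFPT1 were 0.035 and 0.075. None of the genes in this and the preceding paragraph was called in the difference between the lines.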
